A study of Mus musculus with 14 samples.

Results

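The comparison described here is R6/2 against wild-type striatum in the cohort whose sample titles start with Mith. It holds 3 R6/2 and 3 wild-type arrays, 6 of the 14 arrays in the series, chosen by title alone. The study measured striatal RNA of mice at 6 weeks of age on an Affymetrix mouse array. All of the mice, wild-type included, were given normal saline 30 to 60 minutes before they were killed, as control animals of a drug study. Both genotypes are on a CBAxC57BL/6 background. The other 8 arrays, whose titles start with M.C, form a second cohort of 4 R6/2 and 4 wild-type arrays that shares none with Mith. Whether every array came from its own animal, and the sex of the mice, are not in the labels. The p-values therefore rest on array-to-array spread, part of which may be technical. Replicates are numbered in record order, and the numbers pair nothing.

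R6/2 mice carry exon 1 of human HTT with a long CAG repeat under the human HTT promoter, while their own Htt genes are intact. They are a fast model of Huntington disease. The striatum is built mainly from GABAergic spiny projection neurons. Those of the indirect pathway express the dopamine receptor Drd2 and the enkephalin precursor Penk, and those of the direct pathway express Tac1, the substance P precursor, and Pdyn, the dynorphin precursor. Loss of projection neuron transcripts, enkephalin among the first, is a known feature of the model. The mouse Htt probe set does not read the transgene, so it does not check the labels. Its log2 signals were 7.88, 7.94 and 7.88 on the R6/2 arrays and 7.89, 7.89 and 7.94 on the wild-type arrays.

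Values are log2 signals of probe sets, groups of short probes that read one transcript, and every difference is R6/2 minus wild-type on that scale. After the arrays were centred on a common median, none of 22626 probe sets passed limma's two-sided moderated test at a Benjamini-Hochberg adjusted p under 0.05 (0 called, 0%). The smallest adjusted p was 0.0846. An unadjusted p under 0.05 was reached by 2008 probe sets, 8.87% of those tested, where 1131.3 would be expected with no difference anywhere. Of these, 917 were lower in R6/2 (4.05%) and 1091 were higher (4.82%). The groups did not overlap at 2930 probe sets (12.9%), 1434 with R6/2 below (6.34%) and 1496 with R6/2 above (6.61%). With 3 against 3 arrays, such a split by itself has an exact two-sided permutation p of 0.1. The median difference over all probe sets was 0.0011, and 90% of differences lay between -0.22 and 0.26. Arrays were also simulated with the real mean of each probe set, spreads drawn from limma's fitted variance model, and independent noise. There the same 3 against 3 test called 93% of 100 probe sets shifted by 0.8 and 8% of 100 shifted by 0.4. Differences near 0.4, the size of many reported here, were thus seldom called with 3 arrays a group in that simulation.

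**Figure D1:**
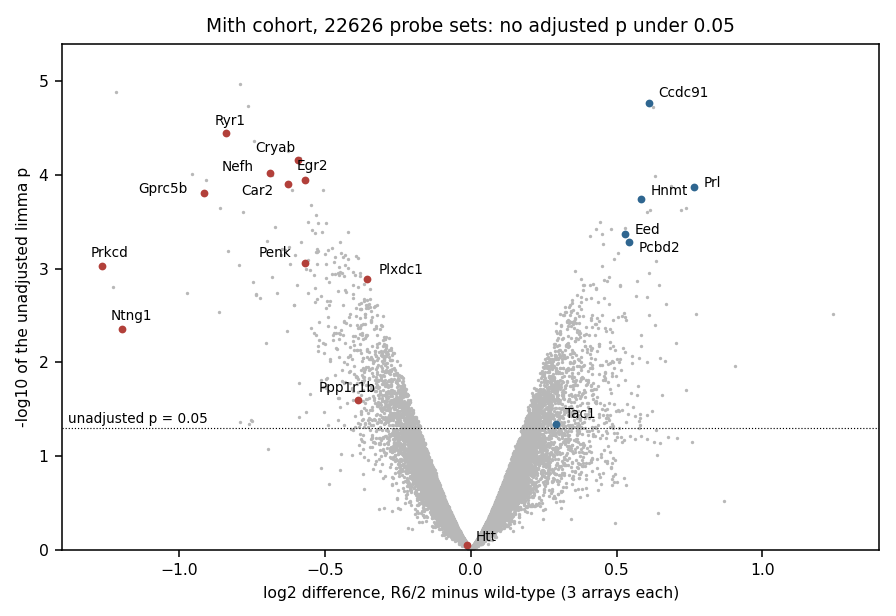
Each point is 1 of 22626 probe sets of the Mith cohort. The horizontal axis gives the log2 difference, R6/2 minus wild-type, and the vertical axis the -log10 of the unadjusted limma p. Some of the genes named in the text are labelled and coloured, red below 0 and blue above 0. Ryr1 and Ccdc91 stand near the top on opposite sides, and Prkcd has the largest difference below 0, at -1.26.

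Below 0, the smallest p of single probe sets were those of 1 without a symbol here, at -0.79, 1 of Tcf7l2 at -1.22 and 1 of Mbp at -0.76, each with an adjusted p of 0.0846 in limma. The genes named next were ranked by their brightest probe set, and included a calcium channel, an orphan receptor, a neurofilament subunit and genes of glia. Ryr1, the calcium release channel of the endoplasmic reticulum, had signals of 6.27, 6.48 and 6.27 on the R6/2 arrays and 6.96, 7.41 and 7.16 on the wild-type arrays. All R6/2 values lay below all wild-type values, with a difference of -0.84 ± 0.12 (SE, n = 3 against 3) and an adjusted p of 0.135 in limma. Gprc5b, an orphan G protein-coupled receptor, differed by -0.91 ± 0.16, from 7.86, 7.43 and 7.72 in R6/2 to 8.24, 8.83 and 8.68 in wild-type. Another probe set of Gprc5b was at -0.34 with groups apart. Nefh, the heavy neurofilament subunit, differed by -0.69 ± 0.11. Car2, a carbonic anhydrase of oligodendrocytes, differed by -0.63 ± 0.10. Cryab, a small heat shock protein, differed by -0.59 ± 0.09, and Itih3, an inter-alpha-trypsin inhibitor chain, by -0.58 ± 0.09. Other probe sets of Cryab were at -0.47 and 0.006. Adamts15, a secreted metalloprotease, was at -0.50 ± 0.09 with groups apart in Mith and at 0.01 in M.C. The adjusted p of these genes ran from 0.135 to 0.161. They were ranked by p in these same arrays, so groups that stand apart add no support.

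The M.C cohort gives the same contrast in arrays that Mith did not use. There the test called 558 probe sets (2.47%), 523 lower in R6/2 (2.31%) and 35 higher (0.155%). Of the 523 called lower in M.C, 449 (85.9%) were also below 0 in Mith and 148 (28.3%) did so at an unadjusted p under 0.05, against the 4.05% of all probe sets. Their median difference was -0.52 in M.C and -0.17 in Mith. Of the 35 called higher in M.C, 24 (68.6%) were above 0 in Mith and 8 (22.9%) had an unadjusted p under 0.05, against 4.82%. Read from the other side, the 381 probe sets lower at an unadjusted p under 0.05 in both cohorts were 41.5% of Mith's 917 and 16.4% of M.C's 2330 (10.3% of those tested). The 81 that were higher in both made up 7.42% of Mith's 1091 and 5.61% of M.C's 1443 (6.38%). Across all probe sets the differences of the cohorts had a Pearson r of 0.23 and a Spearman rank correlation of 0.13. Both are given as descriptions since probe sets are not independent.

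**Figure D2:**
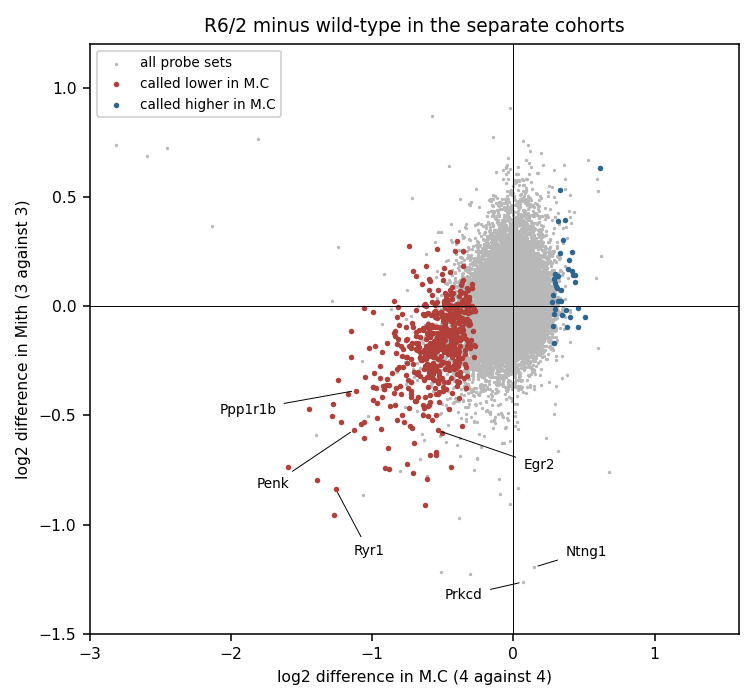
Each point is a probe set, with its log2 difference (R6/2 minus wild-type) in M.C on the horizontal axis and in Mith on the vertical axis. Red points were called lower in M.C and blue points higher. Most red points, 449 of 523, lie below 0 in Mith, and Prkcd and Ntng1 lie far below 0 in Mith alone.

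Genes shared by both classes of spiny projection neuron lay mostly below wild-type, and unevenly so across the arrays. Of 17 measured members, 16 lay below 0. On the lower side 8 had an unadjusted p under 0.05 (4.05% of all probe sets), and none did on the higher side (4.82%). Their median was -0.37, beside 0.0011 over all probe sets. Members of this and the other lists were chosen with earlier results of these data known. Such counts beside the share of all probe sets are therefore descriptions. Rasd2, a small G protein of the striatum, differed by -0.72 ± 0.18, and its groups did not overlap. Pde10a, the cyclic nucleotide phosphodiesterase of these neurons, differed by -0.53 ± 0.15 with groups that overlapped. Of its other probe sets, 1 was at -0.79 ± 0.17 with groups apart and 1 at -0.24 ± 0.11. The potassium channel partner Kcnip2 was at -0.50 ± 0.21, the cAMP-regulated phosphoprotein Arpp19 at -0.45 ± 0.13 and the cannabinoid receptor Cnr1 at -0.42 ± 0.14. Other probe sets were at -0.10 for Kcnip2 and at -0.19 and 0.29 for Arpp19. In bulk tissue, fewer cells of a type and less RNA per cell cannot be told apart.

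Ppp1r1b, which encodes the dopamine signal integrator DARPP-32, shows the unevenness. Its signals were 10.05, 10.24 and 9.95 in R6/2 and 10.14, 10.76 and 10.50 in wild-type. Wild-type replicate 1 lay within the R6/2 range and the others stood above it, for a difference of -0.39 ± 0.15 and an adjusted p in limma of 0.496. Rgs9, a striatal regulator of G protein signalling, had 9.80, 10.003 and 9.74 in R6/2 and 9.73, 10.56 and 10.37 in wild-type, with wild-type replicate 1 the lowest of all. Another probe set of Rgs9 was at -0.10. Over the list, wild-type replicate 1 was the lowest wild-type array for 13 of 17 genes and lay below the highest R6/2 array for 11. Meis2, a homeobox factor, was at 0.04 ± 0.16, and Foxp2, a forkhead factor, at -0.05 ± 0.09.

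The share of all probe sets at an unadjusted p under 0.05 on the lower side was 4.41%, 3.3% and 2.35% when R6/2 replicates 1, 2 and 3 were left out in turn, and 5%, 3.62% and 3.47% for wild-type replicates 1, 2 and 3. In that order the projection neuron count was 5, 8 and 4, then 13, 5 and 5 of 17 members. It was highest with wild-type replicate 1 left out, where the median was -0.55. That array was the lowest wild-type array for 13 of the 17 genes, so leaving it out was bound to widen their differences. The comparison without it, with 2 wild-type arrays, called 13 probe sets, 9 lower (0.0398%) and 4 higher (0.0177%). Ryr1 at -0.95, Gprc5b at -1.08, a second probe set of Rasd2 at -0.95 and a pair of Rgs4 probe sets at -0.71 and -0.98 were among those lower. With R6/2 replicate 3 left out the median was -0.28, and with wild-type replicate 2 left out it was -0.24. In M.C, 14 of the 17 genes were called lower, beside 2.31% of all probe sets, with a median of -0.79. The difference between cohorts, tested as an interaction, had an unadjusted p under 0.05 with Mith the weaker for 11 of the 17 genes, when 6.17% of all probe sets had one on that side. None of these interactions passed adjustment.

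Of the indirect-pathway genes, Penk, Plxdc1 and Upb1, 3 of 4 measured, had groups that did not overlap, beside 6.34% of all probe sets with R6/2 below. Penk had signals of 10.997, 11.12 and 10.96 in R6/2 and 11.33, 11.82 and 11.64 in wild-type. All R6/2 values were below all wild-type values, at 67.5% of the wild-type level by the means of log2 values, with a difference of -0.57 ± 0.12 (adjusted p = 0.253, limma), and of -1.13 in M.C (adjusted p = 0.0012, limma). Plxdc1, a plexin domain protein used as an indirect-pathway marker, had 7.01, 6.97 and 7.08 in R6/2 and 7.34, 7.41 and 7.39 in wild-type. Both groups were narrow and apart, with a difference of -0.36 ± 0.08. Drd2 differed by -0.35 ± 0.16, and its wild-type replicate 1 at 8.80 lay among the R6/2 values of 8.89, 8.90 and 8.55. All 4 measured members were below 0, and the array means of the list did not overlap between genotypes. Of the 36 lists, 12 had such array means with R6/2 lower and 3 with R6/2 higher.

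Direct-pathway genes lay on both sides of 0. Tac1 had signals of 10.66, 10.83 and 11.03 in R6/2 and 10.79, 10.45 and 10.41 in wild-type, a difference of 0.29 ± 0.13 with wild-type replicate 1 inside the R6/2 range. Isl1, a transcription factor of the direct pathway, was at 0.28 ± 0.12. Pdyn was at -0.04 ± 0.09 in Mith and was called lower at -0.55 in M.C. The median of the 7 measured members was 0.06, and none had an unadjusted p under 0.05 on the lower side. On the higher side 2 had one, Tac1 and Isl1, beside 4.82% of all probe sets. Neither had one when R6/2 replicate 3, wild-type replicate 2 or wild-type replicate 3 was left out.

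**Figure D3:**
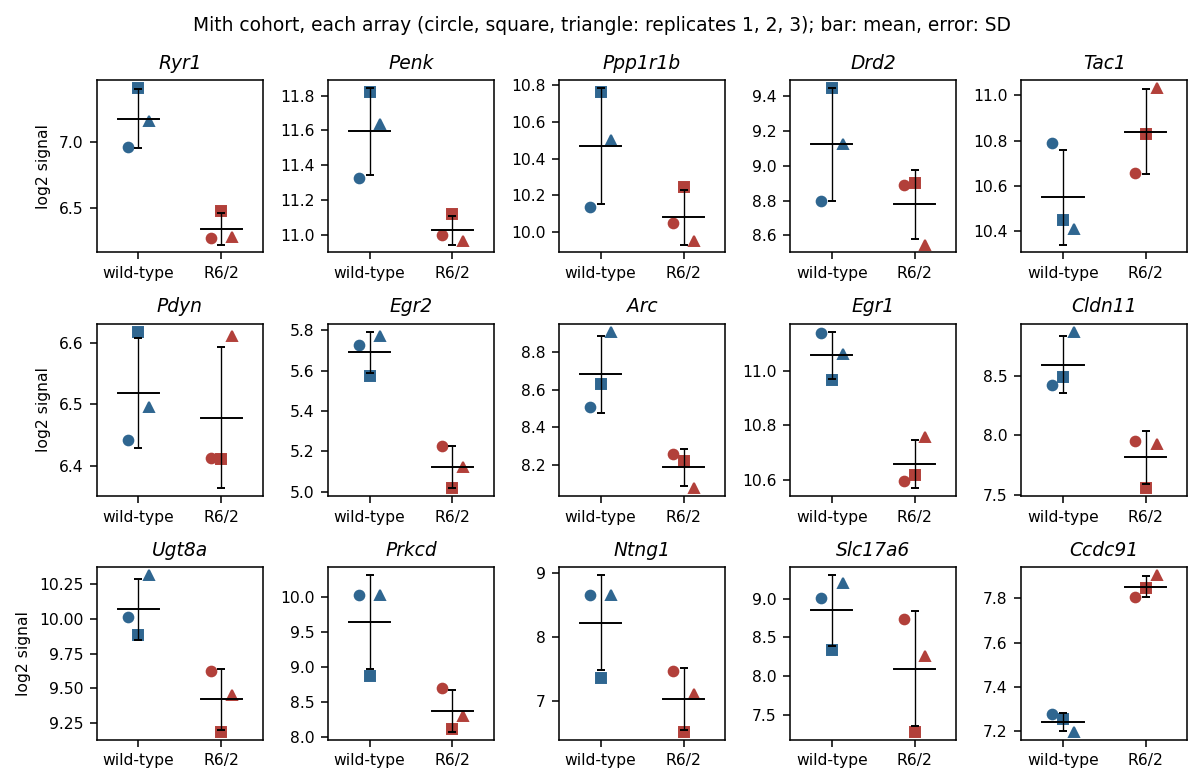
Log2 signal of 15 genes on each Mith array, wild-type in blue and R6/2 in red, with circle, square and triangle for replicates 1, 2 and 3. Horizontal bars give group means and vertical bars the SD, and each panel has its own axis. Ryr1, Penk, Egr2, Arc and Cldn11 separate the genotypes, while wild-type replicate 1 sits among the R6/2 arrays for Ppp1r1b and Drd2.

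Calcium handling, potassium channel and GABA receptor genes lay mostly below wild-type. All R6/2 arrays were below all wild-type arrays for 6 of 23 calcium genes, 6 of 27 potassium channel genes and 3 of 9 GABA receptor genes, beside 6.34% of all probe sets. Of the 23 genes for calcium release, pumps and sensors, 21 lay below 0, with a median of -0.17 that was -0.08 when R6/2 replicate 3 was left out. An unadjusted p under 0.05 on the lower side was found for 6 (4.05% of all probe sets). Besides Ryr1 these were Camkk2, a calmodulin-dependent kinase kinase, at -0.43 ± 0.15, the calcium pumps Atp2a2 at -0.39 ± 0.08 and Atp2b2 at -0.37 ± 0.12, Itpka, an inositol trisphosphate kinase, at -0.36 ± 0.09, and the calcineurin subunit Ppp3ca at -0.22 ± 0.08. All 6 were called lower in M.C. The other ryanodine receptors were at 0.16 for Ryr2 and -0.10 for Ryr3. The potassium channel median was -0.12, with 5 of 27 genes at an unadjusted p under 0.05 on the lower side (8 when wild-type replicate 1 was left out, 3 when R6/2 replicate 3 was). On the higher side there was 1, beside 4.82% of all probe sets. Gabrd, the GABA receptor delta subunit, was the most separated of 9 GABA receptor genes, at -0.45 ± 0.09 in Mith and -0.96 in M.C, where it was called. Among 16 regulators of G protein signalling, Rgs4 was at -0.56 ± 0.12 and Rgs3 at -0.39 ± 0.09, while Rgs19 stood above wild-type at 0.36 ± 0.10.

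Immediate early genes, transcribed within minutes of neuronal activity, lay mostly a little below wild-type. Their list mean was lower on every R6/2 array than on any wild-type array, as for 12 of the 36 lists. A further 3 lists had it higher on every R6/2 array. Of 23 measured genes, 19 lay below 0. An unadjusted p under 0.05 was reached by 6, all on the lower side, beside 4.05% of all probe sets. That count was 3 when R6/2 replicate 3 was left out, beside 2.35%. The median was -0.16 and lay between -0.18 and -0.13 under the alternative settings. Array means relative to the 6-array mean were -0.09, -0.08 and -0.10 in R6/2 and 0.08, 0.06 and 0.12 in wild-type. Egr2, a zinc finger transcription factor, had 5.23, 5.02 and 5.12 in R6/2 and 5.73, 5.58 and 5.77 in wild-type. The groups were separated by more than either group's range, with a difference of -0.57 ± 0.09 (adjusted p = 0.156, limma), and it was called at -0.54 in M.C. Arc, a synaptic capsid-like protein, had 8.26, 8.22 and 8.07 in R6/2 against 8.51, 8.63 and 8.91, a difference of -0.50 ± 0.11. Egr1, a related zinc finger factor, was at -0.40 ± 0.09 with groups apart, and Homer1, a postsynaptic scaffold, at -0.37 ± 0.13 with groups that overlapped. Other probe sets were at -0.30 for Egr2 and at -0.28 and -0.08 for Homer1. Fos, the best known member, was at -0.21 ± 0.13 in Mith and 0.01 in M.C, and Egr3, Fosb and Btg2 were within 0.1 of 0.

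Many early genes are switched on through CREB at cyclic AMP response elements and through serum response factor at CArG boxes. The sequences before the starts of Egr2 and Homer1 are shown since both lay lower in each cohort. They are from RefSeq on GRCm38.p6, plus strand, 5′ to 3′ and ending at a transcription start, chr10:67537709-67537868 for Egr2 and chr13:93303657-93303756 for Homer1. Capitals mark the half-site TGACG, searched on both strands so that it also reads CGTCA, and the CArG box. Where a gene had several listed starts, the one with most matches is printed.
Egr2: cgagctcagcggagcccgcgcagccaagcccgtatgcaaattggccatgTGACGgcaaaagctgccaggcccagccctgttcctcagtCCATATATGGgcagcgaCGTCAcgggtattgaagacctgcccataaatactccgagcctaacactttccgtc
Homer1: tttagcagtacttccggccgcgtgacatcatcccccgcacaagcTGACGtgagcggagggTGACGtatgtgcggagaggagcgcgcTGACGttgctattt

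Egr2 has 2 half-sites and 1 CArG box in its 160 bases, and Homer1 has 3 half-sites in 100 bases. In the 250 bases before a start, the half-site is found for 13 of the 18 early genes that have a listed window, and for 19.8% of 27025 genes in the table. It is present in 17.8% of single windows. A CArG box is found for 1 of the 18 and for 1.62% of all genes. These matches describe the sequences and were not tied to the array values.

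For 9 of 11 measured myelin genes all R6/2 arrays lay below all wild-type arrays, when 6.34% of all probe sets did so. The median of the list was -0.44. Of the 11, 8 had an unadjusted p under 0.05 on the lower side, beside 4.05% of all probe sets. That count was 8 without any one of the 6 arrays. Cldn11, the tight junction claudin of myelin, had 7.96, 7.56 and 7.93 in R6/2 and 8.42, 8.49 and 8.87 in wild-type, a difference of -0.78 ± 0.14. Ugt8a, which makes the myelin galactolipids, had 9.62, 9.18 and 9.45 against 10.01, 9.88 and 10.32, a difference of -0.65 ± 0.14. No R6/2 array reached a wild-type array for either gene. Mobp, a myelin-associated basic protein, was at -0.49 ± 0.12, the hydroxylase Fa2h and the proteolipid Mal at -0.45, and Mag, the myelin-associated glycoprotein, at -0.44 ± 0.12. Mog, the oligodendrocyte surface glycoprotein, was at 0.00 ± 0.14. Mbp, myelin basic protein, was at -0.15 ± 0.09 on its brightest probe set and ran from -0.76 to 0.00 over its 8 probe sets, 7 of them below 0. Precursor and lineage genes had a median of -0.24, with 4 of 9 at an unadjusted p under 0.05 on the lower side (2 when R6/2 replicate 3 was left out), Sox10 at -0.25 ± 0.08 and Tcf7l2 at -0.56 ± 0.13 among them. In M.C the myelin median was -0.33, and Ugt8a was the member called on its brightest probe set. Other probe sets were called lower there for Mobp, at -0.72 and -0.91, Mbp at -0.71 and Cnp, a myelin phosphodiesterase, at -0.59.

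Genes abundant in neurons of the thalamus, a neighbour of the striatum, had the median farthest from 0 of the 36 lists with all 6 arrays in, though the projection neuron median was farther when wild-type replicate 1 or R6/2 replicate 2 was left out. Some of them, such as Calb2 and Zic1, are also expressed by striatal cells. All 11 measured members lay below 0, with a median of -0.56. Of these, 8 had an unadjusted p under 0.05, beside 4.05% of all probe sets on the lower side. Prkcd, a protein kinase C of thalamic relay neurons, had 8.71, 8.13 and 8.30 in R6/2 and 10.03, 8.87 and 10.02 in wild-type, a difference of -1.26 ± 0.28 (adjusted p = 0.253, limma). Ntng1, a netrin-like guidance protein, had 7.47, 6.51 and 7.10 against 8.65, 7.36 and 8.65, a difference of -1.20 ± 0.33. For both genes wild-type replicates 1 and 3 stood far above the rest, and wild-type replicate 2 stood near or among the R6/2 arrays. The vesicular glutamate transporter Slc17a6 was at -0.75 ± 0.32, the zinc finger factor Zic1 at -0.79 ± 0.34 and the nuclear receptor Rora at -0.66 ± 0.16. Lhx9, Lhx2 and Gbx2, the developmental factors of the list, were at -0.11, -0.09 and -0.16. Another probe set of Lhx9 was at -0.45 ± 0.10 with groups apart in Mith, and at 0.02 in M.C. Calb2 counts also as an interneuron gene, Tcf7l2 also as a lineage gene and Prkcd also as a protein kinase C gene.

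Wild-type replicate 2 was the lowest wild-type array for 11 of 11 thalamic genes and lay inside the R6/2 range for 6. The array means of the list were -0.07, -0.55 and -0.26 in R6/2 and 0.40, -0.09 and 0.55 in wild-type, so the genotypes overlapped. Without wild-type replicate 2 the test called 6 probe sets, all lower (0.0265%). They were Prkcd at -1.65 (adjusted p = 0.0207, limma), 2 of Tcf7l2 at -1.36 and -1.63, Ramp3 at -1.04, Rgs16 at -1.08 and Nrip3 at -0.99. Ramp3 is a receptor activity-modifying protein. The list's median was then -0.73. Wild-type replicate 2 was the lowest wild-type array for every measured thalamic gene, so leaving it out was bound to widen their differences. These calls are thus no added support for a difference. In M.C the list's median was -0.06, with Prkcd at 0.07 and Ntng1 at 0.15.

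Thalamic and myelin means ran in parallel on some arrays and not on others. R6/2 replicate 2 was the lowest array for both, with a myelin mean of -0.39. Wild-type replicate 2 had a myelin mean of 0.24, close to the 0.25 of wild-type replicate 3, beside its low thalamic mean. With the thalamic mean of each array as a covariate the myelin median was -0.27, the projection neuron median -0.55 and the indirect-pathway median -0.50. Choroid plexus genes varied between arrays without regard to genotype, with Ttr, the transthyretin of choroid plexus, between 9.73 on wild-type replicate 2 and 13.36 on wild-type replicate 3. The part of dissection in the thalamic, myelin and interneuron values was not tested beyond these figures.

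**Figure D4:**
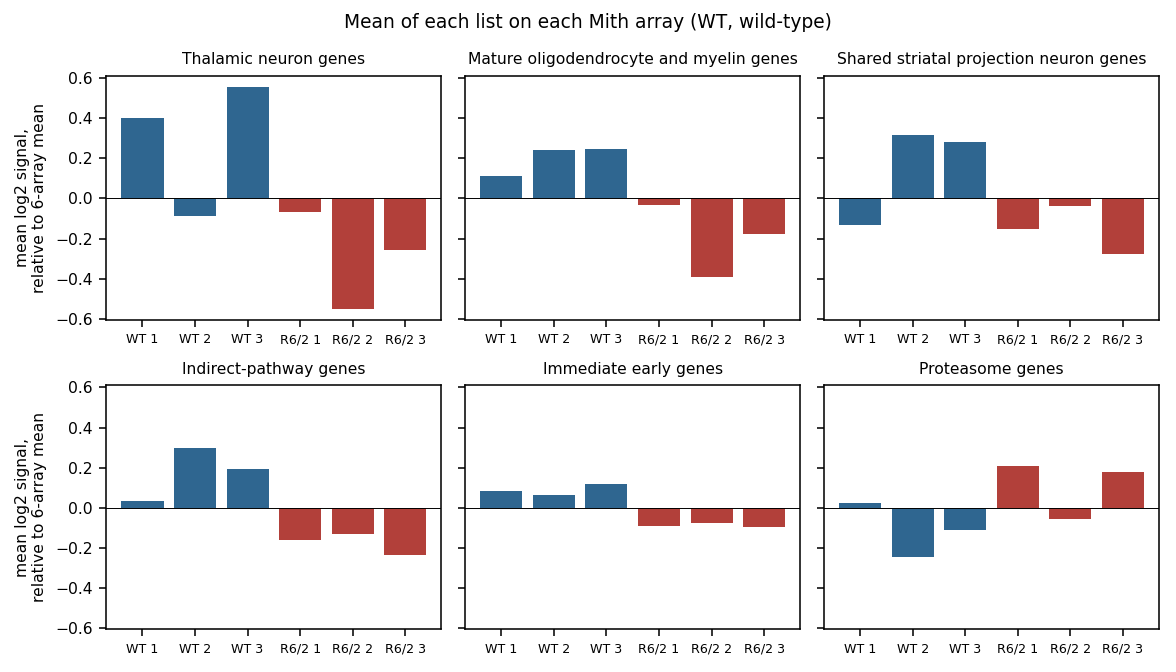
Mean log2 signal of the members of 6 gene lists on each Mith array, relative to the mean of the 6 arrays, with wild-type (WT) in blue and R6/2 in red. Wild-type replicate 2 is low for thalamic genes, and wild-type replicate 1 is low for projection neuron genes. The immediate early, myelin and indirect-pathway lists separate the genotypes on all 6 arrays.

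On the higher side, genes of the proteasome, ribosomes and respiratory chain had medians above 0, but their arrays overlapped. Of 31 proteasome genes 29 lay above 0, with a median of 0.23, and 10 had an unadjusted p under 0.05. Psmc4 and Psmc3, ATPase subunits of the proteasome base, were at 0.30 ± 0.09 and 0.29 ± 0.08 with groups apart, and Psmb5, a catalytic subunit, at 0.29 ± 0.09. Of 43 respiratory chain and ATP synthase genes 37 lay above 0, with a median of 0.19 and 7 at an unadjusted p under 0.05, such as Atp5g1 at 0.35 ± 0.09 and Ndufb8 at 0.33 ± 0.08. Cytosolic ribosomal protein genes had a median of 0.25, with 5 of 29, and mitochondrial ribosomal protein genes 0.15, with 8 of 41, beside 4.82% of all probe sets. That share counts every probe set, while all lists here hold 1 per gene. With 1 probe set per gene, 673 of 12393 genes had such a p on the higher side and 504 on the lower. In M.C the medians of these lists were 0.00, -0.03, 0.04 and 0.00.

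The proteasome means of the arrays were 0.21, -0.06 and 0.18 in R6/2 and 0.02, -0.24 and -0.11 in wild-type, so R6/2 replicate 2 lay below wild-type replicate 1. The counts on the higher side depended on which array was left out. Over all probe sets the share at an unadjusted p under 0.05 was 2.97%, 6.36% and 2.4% when R6/2 replicates 1, 2 and 3 were left out in turn, and 6.69%, 2.82% and 4.94% for wild-type replicates 1, 2 and 3. In that order the proteasome count was 3, 18 and 4, then 17, 4 and 5 of 31 genes. The respiratory count was 3, 18 and 4, then 19, 4 and 5 of 43. All of these lists had their high counts when R6/2 replicate 2 or wild-type replicate 1 was left out. The mitochondrial ribosomal count was 5, 13 and 3, then 15, 4 and 7 of 41. The cytosolic ribosomal count was 1, 13 and 0, then 17, 1 and 1 of 29, and its median ran from 0.13 to 0.40. Ribosomal protein genes have many near-identical copies. Rps9, for one, was at -0.08 on its own probe set and at 1.24, the largest value above 0 in the cohort, on a probe set marked as cross-hybridising.

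The genes above 0 with the smallest p, each taken by its brightest probe set, belonged to no list. Ccdc91, a trans-Golgi trafficking protein, had 7.81, 7.85 and 7.90 in R6/2 and 7.28, 7.25 and 7.20 in wild-type. The groups were tight and apart, with a difference of 0.61 ± 0.08 and an adjusted p in limma of 0.0846, and M.C gave 0.17. Another probe set of Ccdc91 was at 0.27 in Mith. Hnmt, the histamine methyltransferase, was at 0.58 ± 0.10, and Eed, a Polycomb repressive subunit, at 0.53 ± 0.10. Eed was at -0.15 on a second probe set and at 0.19 over the mean of both. Pcbd2, a dimerisation cofactor, was at 0.54 ± 0.11 in Mith and 0.27 in M.C. Mcee, a methylmalonyl-CoA epimerase, was at 0.49 ± 0.10, the kinase Cdkl2 at 0.44 ± 0.08 and Ahctf1, a nuclear pore assembly factor, at 0.43 ± 0.08. All of these genes had all 3 R6/2 arrays above all 3 wild-type arrays on the brightest probe set, as had 6.61% of all probe sets. They were picked by small p in the same arrays, so the split adds no support. Another probe set of Ahctf1 was at 0.22 with groups that overlapped. Prl, the pituitary hormone prolactin, also stood higher, at 0.76 ± 0.13.

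The remaining lists had medians from -0.21 for protein kinase C genes to 0.09 for microglia and complement genes. Of 8 protein kinase C genes 7 lay below 0, and 3 had an unadjusted p under 0.05 on the lower side (4.05% of all probe sets). The array means of that list did not overlap between genotypes, as for 12 of the 36 lists with R6/2 lower and 3 with R6/2 higher. Its lowest member, at -1.26, was Prkcd, also a thalamic gene. For astrocyte genes the median was -0.14, and 4 of 14 were at an unadjusted p under 0.05 on the lower side (4.05% of all probe sets). Among these genes the count was 0 without R6/2 replicate 3 (2.35%), 2 without R6/2 replicate 2 (3.3%) and 1 without wild-type replicate 3 (3.47%). Their median was -0.07 without wild-type replicate 3 and 0.02 with the thalamic mean as a covariate, with Ntsr2, a neurotensin receptor, at -0.39 ± 0.13 the lowest. Interneuron genes had a median of -0.17 (-0.09 without R6/2 replicate 3), with Calb2 at -0.48 ± 0.15 and Pvalb, parvalbumin, at -0.45 ± 0.18, while the neuropeptide genes Sst and Npy were at -0.11 and 0.10. Neurod6, a factor of cortical excitatory neurons, was at 0.48 ± 0.15 in a cortical list with a median of 0.07. Of 18 cholesterol synthesis genes 17 lay below 0, with a median of -0.15 (-0.08 without R6/2 replicate 2, and -0.00047 with the thalamic mean as a covariate). Of these 3 had an unadjusted p under 0.05 (4.05% of all probe sets on the lower side), and 0 did without R6/2 replicate 3 (2.35%). Clock genes had a median of -0.07, with Npas2, a partner of the clock protein Bmal1, at -0.46 ± 0.13. Among the 14 huntingtin-related genes none had an unadjusted p under 0.05, with Bdnf at -0.05 ± 0.09 and Ppargc1a at -0.16 ± 0.12. Nnat, an imprinted membrane protein, was at -0.50 ± 0.15 with overlapping groups. Over the 36 lists 28 medians lay below 0, when 49.6% of all probe sets did, and 0 list members were called. Some lists share members, and all were chosen with earlier results of these data known. A list median is also unlike a single probe set, so the count of medians is a description.

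**Figure D5:**
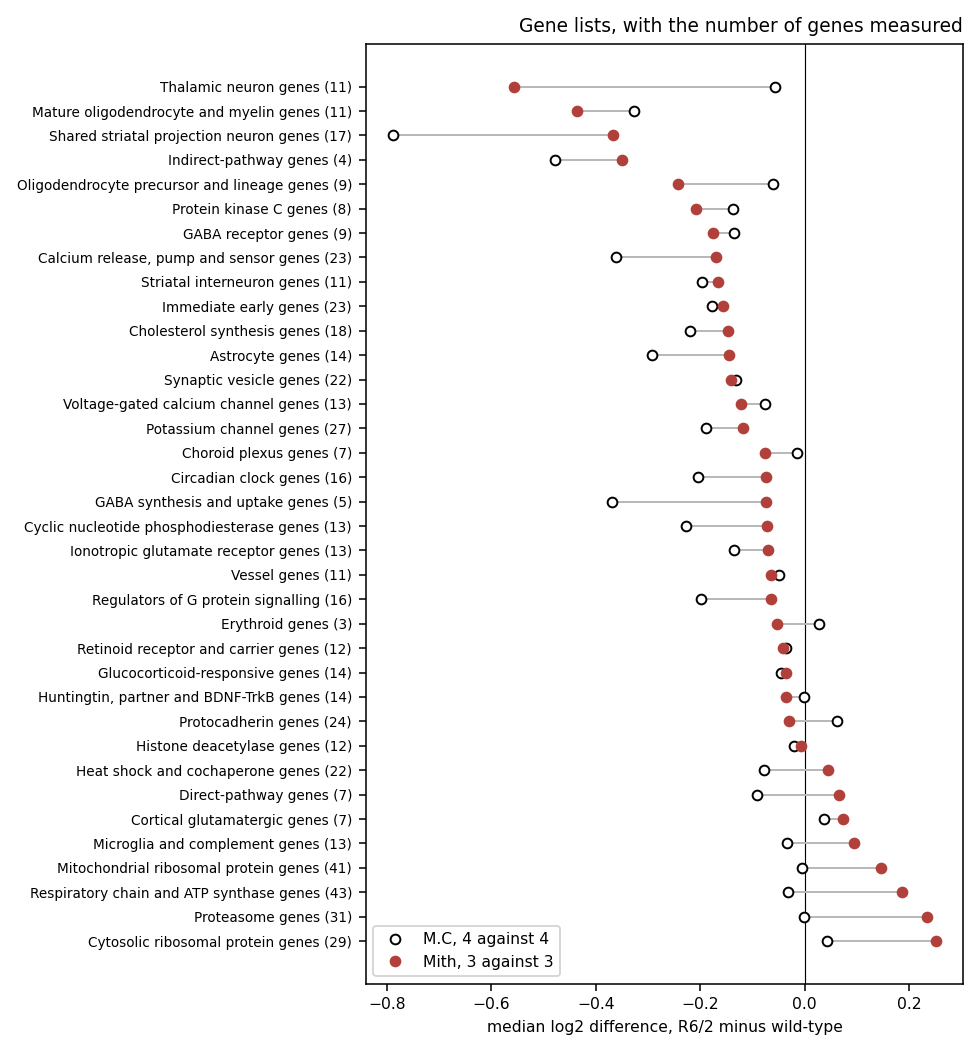
Median log2 difference (R6/2 minus wild-type) of 36 gene lists, in Mith as filled red circles and in M.C as open circles, ordered by the Mith value, with the number of genes measured in brackets. Thalamic, myelin, projection neuron and indirect-pathway lists lie below -0.3 in Mith, and the proteasome, ribosomal and respiratory lists lie above 0.1.

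Whether the genotype difference itself depended on the cohort was tested over all 14 arrays. The interaction called 0 probe sets (0%), with a smallest adjusted p in limma of 0.111. Its unadjusted p was under 0.05 at 2213 (9.78%), 816 with Mith the lower (3.61%) and 1397 with Mith the higher (6.17%). The 5 genes with the smallest p were Cnot7, Rtn2, P4ha1, Ckmt1 and Ap1s1. P4ha1 is a collagen prolyl hydroxylase, Ckmt1 the mitochondrial creatine kinase and Ap1s1 a clathrin adaptor subunit. These were at 0.00, 0.01 and -0.03 in Mith and were called lower in M.C at -0.64, -0.63 and -0.55. Another probe set of P4ha1 was at -0.27 in Mith with groups apart, and was called lower in M.C at -0.61. For Ckmt1 another was at 0.02 in Mith and was called lower in M.C at -0.49. Without wild-type replicate 2 of Mith the interaction called 7 probe sets, among them Prkcd at -1.72 and Ntng1 at -1.77. That array was the lowest Mith wild-type array for both genes, so leaving it out was bound to widen these values.

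When the spread was estimated over all 14 arrays, the Mith contrast called 5 probe sets (0.0221%). Ryr1 at -0.84 (adjusted p = 0.0280, limma), Ramp3 at -0.86 and one probe set each of Rgs16 at -0.91 and Tcf7l2 at -1.22 were lower (0.0177%), and Mkrn1, a ring finger protein, was higher at 0.62 (0.00442%). Ryr1 is the one of the 5 that was called in M.C. The remaining probe sets were at -0.55 and -0.40 for Rgs16, at -0.56, -0.23 and -1.23 for Tcf7l2, and between -0.14 and -0.02 for Mkrn1.

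The 6 arrays were alike in overall signal, with medians from 7.07 to 7.10 as deposited and rank correlations from 0.986 to 0.993. The arrays of R6/2 replicate 2 and wild-type replicate 2 were the second closest pair, at 0.9925, though of different genotype. The excess of 3′ over 5′ signal of the Actb control, a measure of RNA integrity, was 0.567, 0.640 and 0.741 in R6/2 and 0.613, 0.476 and 0.227 in wild-type. Its exact two-sided permutation p was 0.2 (0.8 adjusted over 8 measures), where 0.1 is the smallest that 3 against 3 allows. With it as a covariate the projection neuron median was -0.10, the myelin median -0.33, the early gene median -0.18 and the cytosolic ribosomal median 0.04. Its part in those values was not tested. Xist was between 8.92 and 9.14 on all 6 arrays.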

How the data were processed

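Striatal RNA of 14 samples was measured on an Affymetrix mouse array, and the 6 with titles starting Mith were compared by the genotype in the labels. The authors deposited log2 signals for 22690 probe sets, a unit inferred from their range, 3.01 to 13.9 on these arrays. The summary and normalization methods are not given in the sources used here, and no scans or detection calls were used, so weak signals could not be told from background. The number of arrays limits the precision. The 64 control probe sets were left out. Probe sets were named by the platform's annotation, updated by gene ID with a RefSeq table of GRCm38.p6. Of the tested probe sets 20380 had 1 symbol, 691 several and 1555 none, and 20351 symbols matched by ID.

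Arrays were shifted to the same median and tested with limma 3.58.1 in R 4.3.3, two-sided and moderated, with Benjamini-Hochberg adjustment over 22626 probe sets. A call is an adjusted p under 0.05. The M.C cohort was fitted alone in the same way, and the interaction on 14 arrays with 4 group means. The test was tried on simulated data, where it made 8 false calls in the Mith design. A gene stands by its brightest probe set on average over the Mith arrays, cross-hybridising ones passed over where another exists. The 36 gene lists hold 688 genes, 561 of them with a named probe set. Members and lists were chosen with earlier results of these data known.

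Named genes were up to 15 called genes in each direction, filled with uncalled genes of smallest p to 8 a direction, up to 3 called members of each list, 20 genes always taken (Penk, Drd2, Plxdc1, Ppp1r1b, Pde10a, Cnr1, Rgs9, Tac1, Pdyn, Ryr1, Egr1, Egr2, Arc, Fos, Homer1, Bdnf, Htt, Nnat, Ugt8a and Mbp), the 5 interactions of smallest p and the thalamic list. All other genes quoted were chosen after their values were seen. Array quality was compared by exact permutation over 20 arrangements. Alternatives covered scaling, a filter on low signals, the variance model, array weights, covariates, thresholds, probe set choice and each array left out.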

Additional observations from a re-analysis of the deposited data

Results flagged for a closer look

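Cnot7 and Rtn2 were on opposite sides of wild-type in the cohorts. For Cnot7, a subunit of the CCR4-NOT deadenylase, all Mith R6/2 arrays lay above all Mith wild-type arrays, at 7.79, 7.88 and 7.87 against 7.61, 7.45 and 7.58, and all M.C R6/2 arrays lay below all M.C wild-type arrays. The differences were 0.30 in Mith and -0.40 in M.C, and the interaction of 0.69 had an adjusted limma p of 0.111. For Rtn2, a reticulon of the endoplasmic reticulum, the differences were 0.23 and -0.25, and the interaction of 0.48 had an adjusted limma p of 0.193. Neither interaction passed the threshold.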

How the results depend on the processing

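No paired analysis was possible because the labels do not say that any arrays are paired. Sample titles carry numbers, but the replicate numbers used here follow the record order. The number of probe sets called was 0 in Mith under deposited scale, quantile normalization, the brighter probe sets, a variance trend, robust variances, array weights, both covariates, 1 probe set per gene and a threshold of 0.01. It was 5 with the spread shared over 14 arrays, 5 at a threshold of 0.10, and ran from 0 to 13 with each array left out. The interaction's count ran from 0 to 7 with each array left out, 7 without Mith wild-type replicate 2 and 2, Man1a and Igfbp4, without M.C R6/2 replicate 4, and was 0 under the other settings tried. The count at an unadjusted p under 0.05, 2008, was 1199 among brighter probe sets and 1177 with 1 probe set per gene, where fewer were tested, and ran from 1074 without R6/2 replicate 3 to 2645 without wild-type replicate 1. Its split of 917 lower and 1091 higher was 1071 and 1066 after quantile normalization, 814 and 1898 with the thalamic mean as a covariate, 998 and 671 without R6/2 replicate 1 and 746 and 1438 without R6/2 replicate 2.

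Of 50 named genes 39 kept their sign under up to 16 alternatives each. P4ha1 turned to -0.00025 with quantile normalization, -0.014 with array weights and -0.13 over the mean of its probe sets, and ran from -0.11 to 0.077 with each array left out (-0.055 without R6/2 replicate 1). Ckmt1 turned to -0.0020 with array weights, and ran from -0.081 to 0.072 with each array left out (-0.027 without R6/2 replicate 1). Bdnf turned to 0.0056 with the Actb covariate, 0.00074 without wild-type replicate 2 and 0.0096 over its probe sets. Htt turned to 0.013 with the Actb covariate and 0.0047 without wild-type replicate 3 (its lowest was -0.030, without R6/2 replicate 2), and Pdyn to 0.0094 without wild-type replicate 2. All of these lay within 0.06 of 0 with every array. With the thalamic mean as a covariate Fos turned to 0.10, Nnat to 0.0027, Slc17a6 to 0.37, Lhx9 to 0.12, Zic1 to 0.45 and Ntng1 to 0.023. The last 4 are members of the list that makes that covariate. The cause of the other changes was not tested. Medians of 475 of 539 list and setting pairs moved by less than the spread between arrays. Signal over background could not be set against these limits without detection calls.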

Other observations

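Pituitary hormone transcripts, which striatal cells are not known for, stood out in both cohorts, and these genes were chosen after their values were seen. In Mith, the growth hormone gene Gh had 7.26, 7.38 and 7.19 on the R6/2 arrays and 6.98, 6.78 and 6.97 on the wild-type arrays, with R6/2 above wild-type by 0.37 ± 0.09 on its brightest probe set and by 0.69, 0.72 and 0.74 on others. Prl had 7.83, 7.81 and 8.12 against 7.09, 7.40 and 6.96. Pomc was at 0.15 ± 0.09 and Cga, the shared glycoprotein hormone subunit, at 0.02 ± 0.09. In M.C, wild-type replicate 2 read 13.47 for Prl and 13.50 for Gh, and wild-type replicate 3 read 9.40 and 9.71, while the other 6 arrays lay between 7.18 and 8.35 for these genes. The M.C differences were -1.81 for Prl and -2.13 for Gh, neither of them called.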
